A study of Mus musculus with 2 samples.

Results

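The 44 collagen chain genes of the mouse coronal suture are described here, chain by chain, across the layers of cells that lie over, in and under the suture. The members were taken by symbol, as every gene whose name has the form Col, a type number, a and a chain number, with a match of Ensembl identifiers between both deposited gene lists. They were 44 of the 27514 genes in both lists. Of these, 34 chains had at least 50 unique molecular identifiers (UMIs, each counting 1 captured mRNA molecule) in the labelled cells of each library and are described with levels, out of 12150 genes that met the same minimum.

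Single cells were captured from wildtype C57/BL6 embryos at the embryonic days E15.5 and E17.5 with 10x Genomics 3′ chemistry (v2), and each stage is 1 deposited matrix, called a library here. For E15.5, 10 coronal sutures were pooled, digested with Collagenase II at 3 mg/mL and Dispase at 4 units/mL for 45 min, then cleared of dead cells with a removal kit. For E17.5, 16 sutures from 2 litters were digested in 3 batches (10, 3 and 3 sutures) with Collagenase IV at 2 mg/mL for 30 min and sorted to remove debris, doublets and dead cells. In both, skin, brain and part of the meninges had been removed before the suture was cut out, so cells of these tissues could be sampled only in part. The authors labelled the mesenchymal and osteogenic cells with 15 clusters. In the paper, EC1 to EC4 and LIG are ectocranial (EC1 to EC3 hypodermal, EC4 suprasutural, LIG ligament-like), OG1 to OG4 with the proliferating PO1 and PO2 are osteogenic, and MG1 to MG4 are meningeal (MG1 and MG2 periosteal dura, MG3 dural border, MG4 arachnoid).

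Collagens are matrix proteins, most of them secreted, in which chains of repeated glycine triplets wind into a triple helix. Fibrillar collagens such as types I, III and V build the cables that give bone, dermis, ligament and dura their tensile strength, and fibril-associated collagens (FACITs) such as types IX, XII, XIV and XVI sit on their surface. Type IV chains form the sheet of basement membranes, type VI chains form beaded filaments around cells, type VIII chains form short-chain lattices, and several collagens stay in the cell membrane.

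The 5335 labelled cells of the E15.5 matrix held 48607817 UMIs, with 8510 as the median of a cell. Those of the E17.5 matrix numbered 6830 and held 92585034 UMIs, with 12302 as the median. The E17.5 barcodes carry a suffix from 1 to 3 (1234, 2770 and 2826 labelled cells) that the labels do not tie to a batch. Each suffix may hold other embryos or another litter, so the spread over suffixes given below mixes these with preparation. The E15.5 library and each suffix shared 30 to 83 barcodes (5 to 19 labelled in both), and any pair of suffixes shared 10 to 23 (5 to 13 labelled). All 38 marker and cluster pairs taken from the paper were above the other labelled cells in both libraries, and 33 of them by at least 2-fold. Under 2-fold in a library were *Scx* in LIG, *Pthlh* and *Six2* in OG1, and *Lef1* and *Inhba* in OG2. The authors drew the clusters and described these markers on the same cells, so this does not test the labels. At E17.5 the UMI total of every labelled cell equalled the total in the authors' cell table, and at E15.5 that of 0 of 5335 cells did. Stage, enzyme, sort, embryos, gene list and counting version therefore change together and, between libraries, cannot be told apart. Each stage is 1 deposited sample, and the E17.5 suffixes carry no labels of their own, so nothing was tested and no p-value is given. A level in CPM is the UMI count of a chain over all UMIs of its cluster, scaled in the usual way, with an exact Poisson 95% interval in parentheses. A chain is called higher or lower in a cluster when its CPM differed by at least 2-fold from all other labelled cells in both libraries, which describes clusters that the authors had drawn on these same cells. The intervals cover counting error only.

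Cells outside the labels give the background under these levels. Unlabelled cells with markers of blood cells (599 in the E15.5 library and 590 at E17.5), which should make little collagen, still gave 0.226% and 0.483% of their UMIs to collagen chains, including 461 and 1777 CPM of *Col1a1*. For 10 of the 34 chains in the E15.5 library and 12 at E17.5, more than 7 of the 15 clusters lay no more than 2-fold above the level in these cells. *Col2a1*, the chain of cartilage fibrils, had 84.1 and 30.1 CPM in them, and 9 and 2 clusters lay more than 2-fold above that.

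Collagen chains took 1002556 UMIs at E15.5, or 2.06% of all UMIs of labelled cells, and 2545655 or 2.75% at E17.5. *Col1a1*, *Col1a2* and *Col3a1*, the chains of the main fibrils of bone, dermis and dura, made up 79.8% and 83.4% of them. At E15.5 the share was highest in OG4, the osteoblast cluster, at 10.56% (10.52 to 10.61, exact Clopper-Pearson 95% interval), followed by MG1 with 3.46% (3.39 to 3.53) and MG2 with 3.24%. It was lowest in OG1 with 0.954% (0.941 to 0.968). At E17.5 MG1 was highest with 5.33% (5.31 to 5.35), then MG2 with 4.16%, MG3 with 3.86%, OG4 with 3.79% (3.78 to 3.80) and LIG with 3.68%, and PO2 was lowest with 1.39%. OG4 thus lay above MG1, MG2 and MG3 at E15.5 and below them at E17.5 with the suffixes pooled. Within each suffix OG4 (4.66%, 3.41% and 3.81%) stayed above MG3 (4.59%, 3.18% and 3.76%). MG2 had 4.12%, 3.97% and 4.35%, so OG4 was below it in suffixes 2 and 3 only. In suffix 1, which held no MG1 cells, OG4 had the highest share of any cluster. OG1, OG2, PO1, PO2 and the arachnoid cluster MG4 stayed under 2% in both libraries.

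The share was higher at E17.5 than at E15.5 in 14 of 15 clusters, OG4 being the exception. Without *Col1a1*, *Col1a2* and *Col3a1* it was higher in 8 of 15, and over all labelled cells it was then 0.416% and 0.455%. The mean over the clusters of a layer went from 1.78% to 3.08% in the ectocranial layer, from 2.68% to 1.97% in the osteogenic layer and from 2.78% to 3.73% in the meningeal layer. In OG4 the 3 suffixes gave 4.66%, 3.41% and 3.81%, all far below the E15.5 value. In MG4 they gave 2.52%, 1.44% and 1.62%, a spread wider than the difference between the libraries, with 7 cells of this cluster in suffix 1. Suffix 1 held 0 MG1 cells, so the MG1 values at E17.5 come from suffixes 2 and 3, which gave 5.16% and 5.47%.

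**Figure D1:**
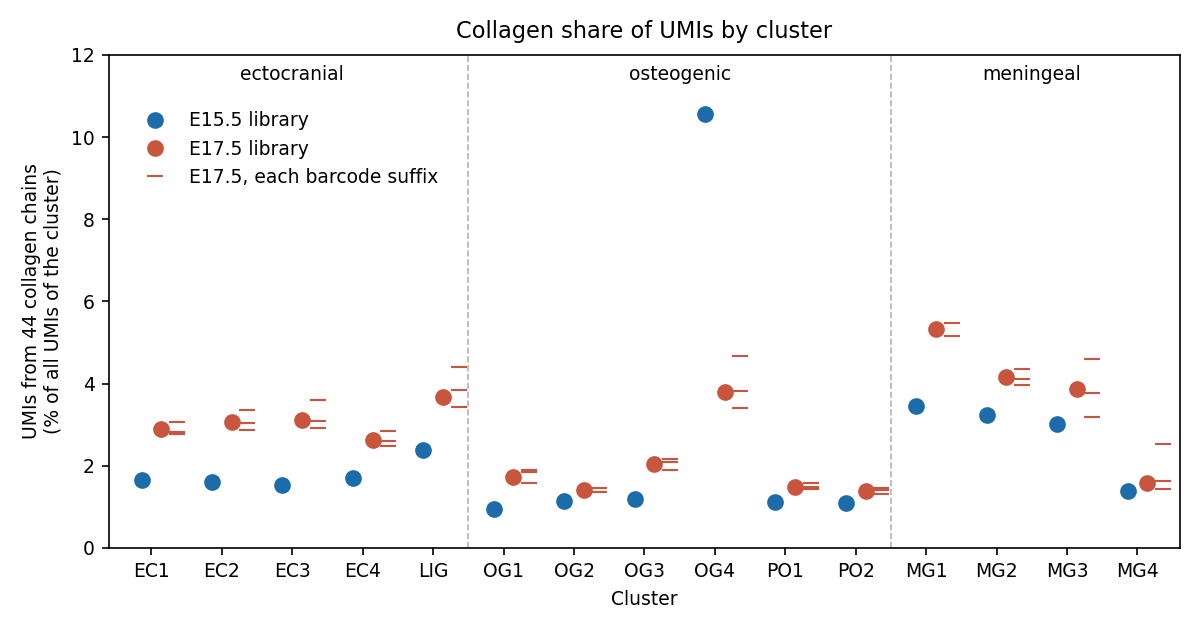
Share of UMIs in collagen chains, in percent, for each of the 15 labelled clusters in the E15.5 and E17.5 libraries, with the barcode suffixes of E17.5 as short dashes. OG4 stands apart at E15.5 with 10.6%, and MG1 is highest at E17.5 with 5.33%.

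By structural class, fibrillar chains made up between 74.3% (OG2) and 98.5% (OG4) of collagen UMIs in the E15.5 library, and between 81.2% and 95.3% at E17.5. Beaded filament chains took 14.1% of the collagen UMIs of OG2 in the E15.5 library and 0.301% of those of OG4, and 10.0% and 2.85% at E17.5. FACIT chains took their largest part in MG1, at 8.66% and 5.64%. Short-chain network chains took theirs in EC4, at 8.74% and 9.37%.

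Of the 34 chains, 17 had the same highest cluster in both libraries and 24 the same highest layer. These counts were not computed over all genes, so they cannot be read as particular to collagen chains. Across the 15 clusters, the log2 CPM of a chain in one library correlated with that in the other from r = 0.09 (*Col7a1*) to r = 0.97 (*Col14a1*), a description over 15 points that share a library and its depth. Over all clusters, 35 pairs of a chain and a cluster were called higher. The share of all genes called higher is given below with each of these clusters.

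**Figure D2:**
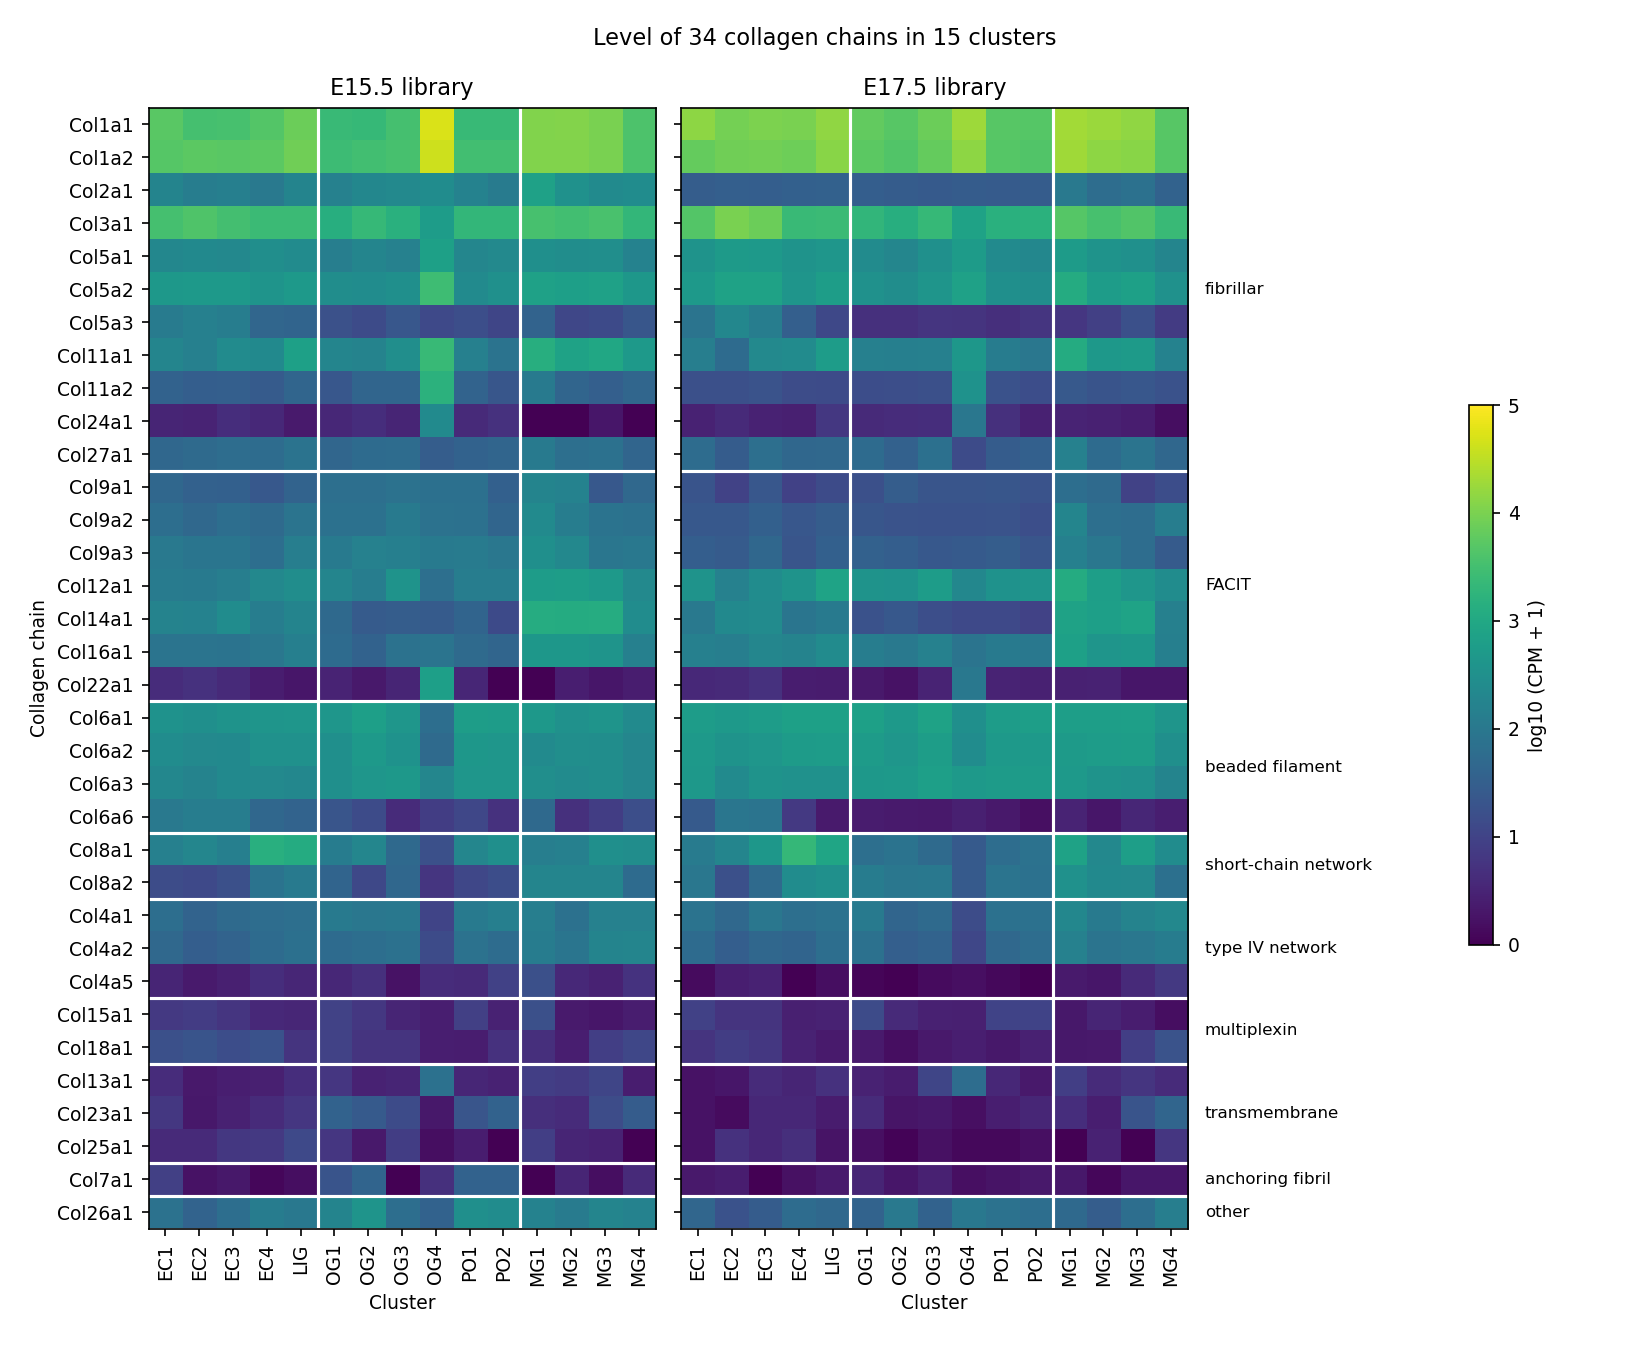
Level of 34 collagen chains, as log10(CPM + 1), in the 15 clusters of the E15.5 and E17.5 libraries, with chains ordered by structural class. *Col1a1* and *Col1a2* are high everywhere, whereas *Col11a2*, *Col22a1* and *Col24a1* stand out in OG4, *Col14a1* in MG1 to MG3 and *Col8a1* in EC4 and LIG.

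*Col1a1* and *Col1a2* encode the chains of type I collagen, the main protein of bone matrix. At E15.5 *Col1a1* had 53092 CPM in OG4 (52757 to 53429) and *Col1a2* had 42298 CPM (41999 to 42599), which were 11.4 and 7.39 times their levels in all other cells. At E17.5 OG4 had 18758 CPM of *Col1a1* and 14386 of *Col1a2*, 1.91-fold and 1.71-fold above them, so neither chain was called. MG1 had more of both in that library, with 20088 and 19137 CPM. In OG4 the suffixes gave 24614, 16436 and 18702 CPM of *Col1a1*.

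*Col3a1*, the chain of the fine fibrils of soft connective tissue, ran the other way. It was lowest in OG4 in both libraries, with 573 and 755 CPM, 0.19 and 0.23 times the other cells, and highest in the hypodermal cluster EC2, with 4136 CPM (4095 to 4178) and 9843 CPM (9774 to 9912). MG3 had 3620 and 4409 CPM. *Col5a1* and *Col5a2*, chains of the type V collagen that nucleates type I fibrils, were present in all clusters. *Col5a2* went from 242 CPM in PO1 to 2796 in OG4 in the E15.5 library, and from 278 in PO2 to 1190 in MG1 at E17.5. *Col5a1* was highest in OG4 in both, at 709 and 561 CPM, with folds of 3.11 and 1.62.

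OG4 was marked by a group of minor chains. *Col11a2*, *Col22a1*, *Col24a1* and *Col13a1* were called higher there, 4 of 34 chains, where 3.02% of all genes tested were called higher in OG4. *Col11a2* (chromosome 17 from 34039437 to 34066685), a type XI fibrillar chain best known from cartilage, had 1656 CPM (1597 to 1717) in the E15.5 library and 358 CPM (346 to 369) at E17.5. The folds over all other labelled cells were 48.4 and 22.4. In the E15.5 library MG1 came next with 111 CPM from 29 UMIs, and all other clusters lay between 20.7 and 43.6 CPM. At E17.5 the clusters outside OG4 lay between 12.8 and 23.4 CPM. Blood-marker cells had 23.3 and 19.6 CPM, and OG4 and MG1 in the E15.5 library and OG4 at E17.5 were more than 2-fold above that.

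*Col22a1* encodes a FACIT found at tissue junctions such as that of muscle and tendon. It had 650.4 CPM (614 to 689) and 101 CPM (95.2 to 107) in OG4, against at most 4.13 CPM in any other cluster, and folds of 267 and 55.7. *Col24a1*, a fibrillar chain associated with developing bone, had 243 CPM (221 to 267) and 93.3 CPM (87.5 to 99.3), with folds of 101 and 30.3. *Col13a1*, a transmembrane collagen of cell junctions, was lower, at 71.8 CPM (60.0 to 85.3) and 59.4 CPM (54.9 to 64.3), with folds of 26.3 and 15.1. The 4 chains were in the same place in every suffix of E17.5, where the folds lay between 20.3 and 25.8 for *Col11a2*, 54.0 and 63.3 for *Col22a1*, 28.9 and 33.4 for *Col24a1*, and 13.9 and 17.4 for *Col13a1*. *Col22a1* UMIs were found in 95.8% of OG4 cells in the E15.5 library and in 52.0% at E17.5, *Col11a2* UMIs in 98.4% and 74.9%.

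*Col11a2* and *Col22a1* were each other's most alike chain across the 15 clusters (r of log2 CPM 0.90 in the E15.5 library and 0.93 at E17.5), and *Col24a1* was most like *Col11a2* (0.88 and 0.88). Cartilage markers did not follow them. The summed CPM of *Acan*, *Matn1*, *Matn3*, *Cnmd* and *Hapln1* was 204 and 42.0 in OG4, inside the range of the other clusters (92.9 to 542 and 30.9 to 355), where unlabelled chondrocyte-marker cells had 9785 and 4672.

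**Figure D3:**
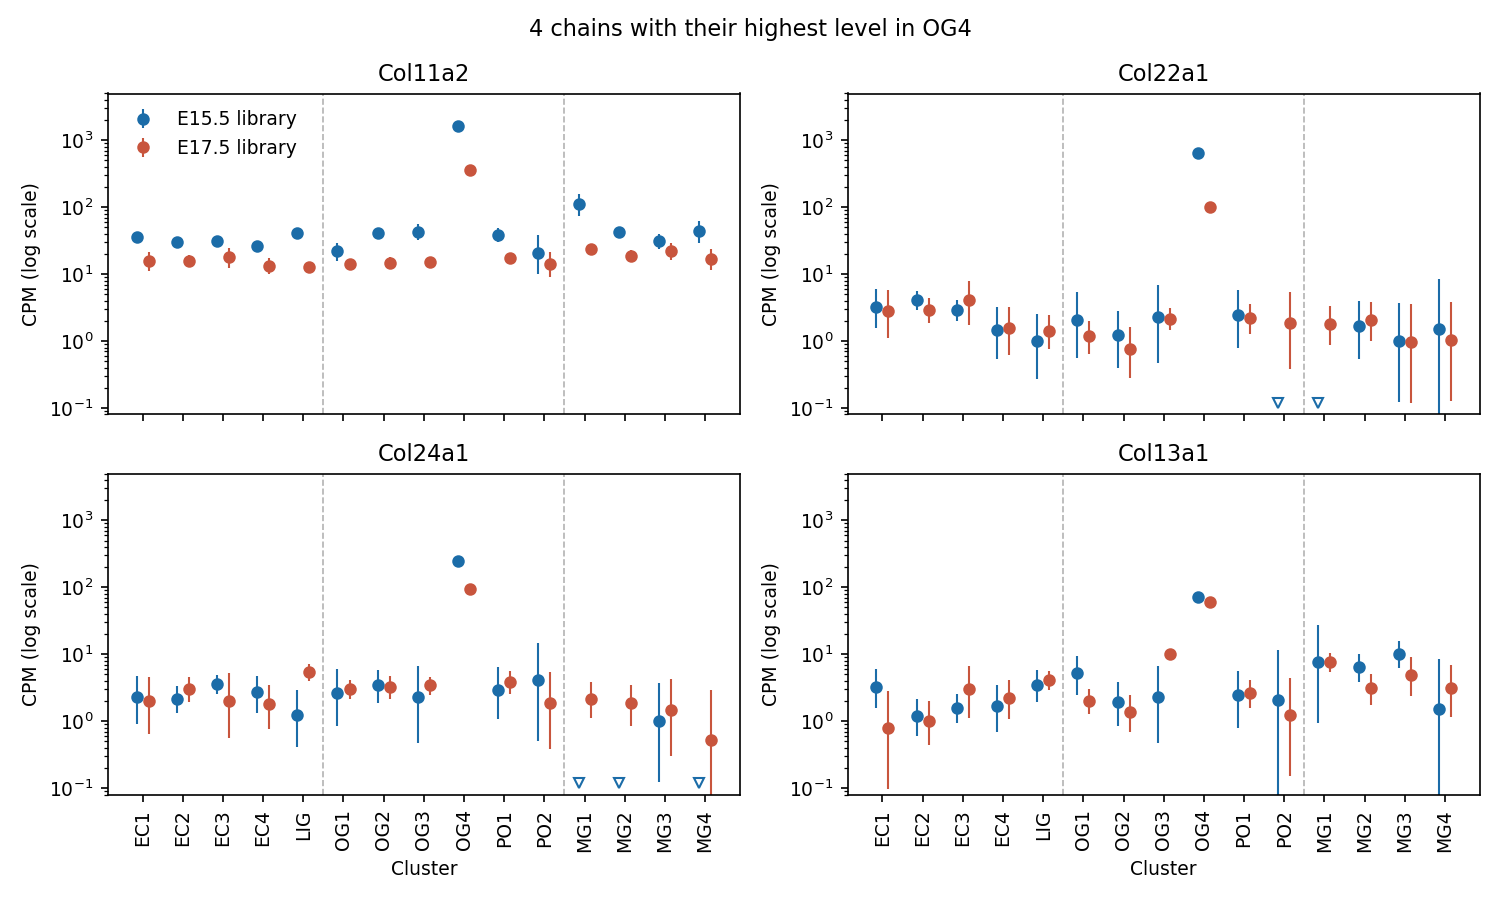
Level of *Col11a2*, *Col22a1*, *Col24a1* and *Col13a1* in CPM on a log axis, by cluster and library, with exact Poisson 95% intervals and open triangles for clusters with 0 UMIs. Each chain is highest in OG4 in both libraries, and the 4 chains have 59.4 to 1656 CPM there.

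The start regions of 3 of the OG4 chains are printed because these chains move together between clusters. They are RefSeq promoter windows of GRCm38.p6, from 250 bases before the annotated start to 50 after it, 5′ to 3′ on the strand of the gene. Capitals mark the letters TATAAA found on either strand. The *Col11a2* window is chr17:34038888-34039187 on the + strand and ends before the GENCODE gene begins, that of *Col13a1* is chr10:61979059-61979358 on the − strand, and that of *Col24a1* is chr3:145292222-145292521 on the + strand.
Col11a2: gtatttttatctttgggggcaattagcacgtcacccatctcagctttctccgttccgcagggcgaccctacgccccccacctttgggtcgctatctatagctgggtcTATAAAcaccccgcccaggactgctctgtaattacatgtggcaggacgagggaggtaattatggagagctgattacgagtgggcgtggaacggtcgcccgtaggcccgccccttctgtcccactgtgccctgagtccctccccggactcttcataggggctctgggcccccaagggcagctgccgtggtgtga
Col13a1: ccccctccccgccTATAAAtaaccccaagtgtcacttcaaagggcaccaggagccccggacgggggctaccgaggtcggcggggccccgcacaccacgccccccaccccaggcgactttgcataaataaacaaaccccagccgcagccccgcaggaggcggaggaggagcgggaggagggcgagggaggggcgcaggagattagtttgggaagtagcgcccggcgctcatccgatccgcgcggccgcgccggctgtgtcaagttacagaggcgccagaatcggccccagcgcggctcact
Col24a1: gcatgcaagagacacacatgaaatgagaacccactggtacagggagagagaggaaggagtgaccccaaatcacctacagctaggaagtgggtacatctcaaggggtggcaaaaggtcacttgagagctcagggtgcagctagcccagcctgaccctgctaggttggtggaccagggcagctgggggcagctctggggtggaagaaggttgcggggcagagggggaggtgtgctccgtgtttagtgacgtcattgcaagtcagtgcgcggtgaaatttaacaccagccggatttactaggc
TATAAA lies 143 bases before the start in *Col11a2* and 237 before it in *Col13a1*, and the *Col24a1* window holds none. Over 32851 RefSeq promoter windows of the same length, 13.6% hold these letters on either strand, and 5 of the 38 windows of collagen chains do (35 of the 44 chains had a window). The letters TGTGGT, the core that Runx factors bind, are in 16.8% of all windows, in 3 of the 38 and in none of these 3. The chains without a window were *Col1a1*, *Col2a1*, *Col4a3*, *Col5a2*, *Col9a3*, *Col12a1*, *Col14a1*, *Col22a1* and *Col26a1*.

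Other chains were low in OG4. Called lower there were 14 of the 34 chains, where 12.1% of all genes tested were called lower. They were the fibrillar *Col3a1*, *Col5a3* and *Col27a1*, the FACITs *Col12a1* and *Col14a1*, the beaded filament chains *Col6a1* and *Col6a6*, the basement membrane chains *Col4a1* and *Col4a2*, *Col8a1* and *Col8a2* of type VIII, the multiplexin *Col15a1* and the transmembrane *Col23a1* and *Col25a1*. *Col8a1* was 0.042 and 0.069 times the other cells and *Col14a1* 0.094 and 0.068 times. *Col15a1*, *Col23a1* and *Col25a1* had under 2 CPM in OG4, near the limit of counting.

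The less mature osteogenic clusters had a different balance. OG2 was called lower in 13 of 34 chains, where 5.73% of all genes were, and higher only in *Col26a1*, where 0.239% of all genes were. The 13 included *Col1a1* (0.33 and 0.45 times the other cells), *Col1a2*, *Col5a2*, *Col11a1* and all 4 chains that marked OG4. *Col26a1*, a secreted chain of small size first described in gonads, had 388 CPM (369 to 408) in OG2 in the E15.5 library and 106 CPM (98.5 to 113) at E17.5, with folds of 4.01 and 2.02. In the suffixes the fold was 3.14, 1.85 and 1.88, so the call at E17.5 rests on suffix 1. PO1 and PO2 had 306 and 266 CPM of it in the E15.5 library and 75.8 and 64.2 at E17.5.

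The type VI chains *Col6a1*, *Col6a2* and *Col6a3*, which form the filaments around cells, were found in every cluster. At E15.5 *Col6a1* went from 63.0 CPM in OG4 to 676 in OG2, and all clusters but OG4 had at least 248 CPM. At E17.5 it went from 302 CPM in OG4 to 743 in OG3. *Col6a3* was highest in OG3 in both, at 472 and 664 CPM, and none of the 3 chains was called higher in any cluster. *Col7a1*, the anchoring fibril chain of skin, was called higher in OG1, with 18.7 CPM (13.1 to 25.9) from 36 UMIs in the E15.5 library and 2.34 CPM (1.56 to 3.39) from 28 UMIs at E17.5, where 0.296% of all genes were called higher in OG1. OG2, PO1 and PO2 had 40.0, 36.7 and 37.2 CPM at E15.5. Keratinocyte markers (*Krt5*, *Krt14* and *Krt15*) summed to 396 CPM in OG1 in the E15.5 library, and to 29.0 in OG2, 4.9 in PO1 and 4.13 in PO2, and to at most 3.16 in any cluster at E17.5. Muscle markers summed to 387 CPM in OG1 at E15.5. Their part in the *Col7a1* level of OG1 was not tested. With cells thinned to 3000 UMIs the smaller of both folds in OG1 fell below 1.

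*Col14a1*, a FACIT that regulates the width of fibrils, was the chain whose profile was most alike in both libraries. It had 1260 CPM in MG1 (1128 to 1403), 1169 in MG2 (1131 to 1209) and 1272 in MG3 (1222 to 1322) in the E15.5 library, and 745 (723 to 769), 665 (642 to 689) and 794 (756 to 834) at E17.5. The arachnoid cluster MG4 had less, with 263 CPM (226 to 305) and 148 CPM (132 to 167). Ectocranial clusters lay between 129 and 263 CPM and between 85.2 and 260, overlapping MG4. The 6 osteogenic clusters lay between 12.4 and 50.4 CPM and between 8.64 and 23.3, below every ectocranial and meningeal cluster. Around the level of blood-marker cells (29.0 and 19.3 CPM), these osteogenic values cannot be read as transcription in those cells.

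MG1 carried the most chains called higher, 11 of 34, where 1.45% of all genes tested were called higher in MG1. Its E15.5 values rest on 28 cells. The chains were *Col2a1*, *Col11a1* and *Col27a1* of the fibrillar class, the FACITs *Col9a1*, *Col9a2*, *Col9a3*, *Col12a1*, *Col14a1* and *Col16a1*, the lattice chain *Col8a2* and the basement membrane chain *Col4a2*. *Col11a1*, which with type V or type II chains sets fibril thickness, had 1371 CPM (1232 to 1520) and 1172 CPM (1144 to 1201), with folds of 3.47 and 4.63. OG4 had more at E15.5, with 2357 CPM, and less at E17.5, with 442 CPM. *Col12a1*, a FACIT of tissues under strain, had 573 CPM (485 to 672) and 1177 CPM (1149 to 1207), with folds of 2.90 and 2.83. MG2 was highest in *Col12a1* at E15.5 with 594 CPM, and LIG came after MG1 at E17.5 with 809 CPM.

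*Col16a1*, a FACIT of small fibrils, was called in MG1, MG2 and MG3. It had 439, 451 and 380 CPM in them in the E15.5 library, and 679, 399 and 447 CPM at E17.5, and at most 254 CPM (LIG at E17.5) in clusters outside the meninges. In MG2, *Col9a1*, *Col9a3*, *Col14a1* and *Col16a1* were called, 4 of 34 chains where 2.4% of all genes were. In MG3, *Col4a1*, *Col14a1* and *Col16a1* were called, 3 of 34 where 3.52% of all genes were. *Col14a1* and *Col16a1* were each other's most alike chain (r 0.91 and 0.85), as were *Col8a2* and *Col12a1* (0.95 and 0.86).

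With all labelled cells counted, the cartilage chains of types II and IX were highest in MG1 in both libraries. *Col2a1* had 718 CPM in MG1 (619 to 828) in the E15.5 library and 104 CPM (95.7 to 113) at E17.5. *Col9a1*, *Col9a2* and *Col9a3*, the chains of the FACIT that coats type II fibrils, had 176, 241 and 309 CPM in MG1 in the E15.5 library and 63.4, 185 and 152 at E17.5. The summed markers of chondrocytes, with 5 of 5 detected, were also highest in MG1, at 542 and 355 CPM, followed by MG2 with 367 and 179 CPM, and were 137 and 65.7 CPM in MG3. Each of these chains came next in MG2 at E15.5, and *Col9a1* and *Col9a3* did so at E17.5. The other chains did not follow the markers there. At E17.5 *Col2a1* had 72.5 CPM in MG3 and 59.3 in MG2. *Col9a2* had 129 CPM in MG4, where the markers summed to 81.1 CPM, and 65.3 in MG2. At E15.5, 4 of the 28 MG1 cells had a high doublet score. Without them the marker sum fell to 228 CPM, *Col2a1* to 262 CPM, *Col9a1* to 63.1 and *Col9a3* to 112 CPM, and *Col9a1*, *Col9a3* and *Col27a1* were no longer called. *Col9a2* (189 CPM), *Col11a1* (1170 CPM) and *Col14a1* (1427 CPM) remained past the limit. At E17.5, where 38 of 423 MG1 cells were left out in the same way, *Col2a1* was 107 CPM, *Col9a1* 66.1 and *Col9a3* 156 CPM.

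The basement membrane chains *Col4a1* and *Col4a2* were highest in the meningeal layer. *Col4a1* had 158 CPM in MG4 (129 to 191) and 153 in MG3 (136 to 171) in the E15.5 library, and 211 (191 to 233) and 173 (156 to 193) at E17.5, with folds of 2.26 to 2.77. MG1 had 134 CPM (93.1 to 186) and 207 CPM (195 to 219), with folds of 1.96 and 2.91, so its fold in the E15.5 library fell just short of a call. *Col4a2* had 191 CPM in MG4 (159 to 227) and 122 (107 to 139), and 126 and 154 CPM in MG1. Both were lowest in OG4, at 9.39 to 13.3 CPM. In MG4, *Col4a1*, *Col4a2* and *Col23a1* were called, 3 of 34 chains where 3.07% of all genes were. *Col23a1*, a transmembrane collagen, had 27.1 CPM (16.1 to 42.8) from 18 UMIs in the E15.5 library and 42.6 CPM (33.9 to 53.0) from 81 UMIs at E17.5. At E15.5 OG1 and PO2 had more, with 36.9 and 37.2 CPM, and at E17.5 no cluster but MG3 (18.6 CPM) came above 3.45 CPM. Endothelial markers (*Pecam1*, *Cdh5*, *Emcn* and *Kdr*) were also highest in MG3 (61.0 and 86.7 CPM) and MG4 (87.3 and 73.2 CPM), against 9.26 to 12.8 CPM in MG1 and MG2 and 1694 and 2732 CPM in endothelial-marker cells. At E17.5 *Col4a1* was 207 CPM in MG1 and 211 CPM in MG4, and endothelial markers were 9.26 and 73.2 CPM. The part of endothelial RNA in the type IV levels was not tested. *Col4a5*, a further type IV chain, reached at most 15.3 CPM, from 4 UMIs.

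*Col4a1* (chromosome 8 from 11198423 to 11312826, − strand) and *Col4a2* (chromosome 8 from 11312805 to 11449287, + strand) start head to head, and in the GENCODE annotation they overlap by 22 bases. Their RefSeq promoter windows of GRCm38.p6 are printed because the chains share this region and have like profiles. The window of *Col4a1* is chr8:11312777-11313076 on the − strand and that of *Col4a2* is chr8:11312555-11312854 on the + strand, each 5′ to 3′ on the strand of its gene. Capitals mark the 78 bases that both windows hold, read on opposite strands.
Col4a1: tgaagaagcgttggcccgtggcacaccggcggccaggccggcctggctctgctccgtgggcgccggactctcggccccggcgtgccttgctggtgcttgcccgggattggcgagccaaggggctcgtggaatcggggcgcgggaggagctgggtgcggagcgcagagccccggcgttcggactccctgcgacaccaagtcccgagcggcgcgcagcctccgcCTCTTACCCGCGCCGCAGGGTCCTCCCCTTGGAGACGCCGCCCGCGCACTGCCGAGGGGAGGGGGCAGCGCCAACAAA
Col4a2: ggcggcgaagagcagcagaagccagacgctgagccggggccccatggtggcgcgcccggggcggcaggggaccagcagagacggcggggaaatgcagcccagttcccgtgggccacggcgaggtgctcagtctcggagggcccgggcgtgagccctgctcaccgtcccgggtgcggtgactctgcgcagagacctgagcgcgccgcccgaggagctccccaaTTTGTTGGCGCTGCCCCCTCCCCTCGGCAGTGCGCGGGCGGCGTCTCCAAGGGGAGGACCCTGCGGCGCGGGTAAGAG
Each window holds CCAAT once on either strand, as do 37.4% of all windows, and the GC box letters GGGCGG occur 1 time in that of *Col4a1* and 3 times in that of *Col4a2*, where 35.7% of all windows hold them and 23 of the 38 collagen windows (60.5%). The log2 CPM of both chains correlated across the 15 clusters with r = 0.88 in the E15.5 library and 0.98 at E17.5.

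The ectocranial clusters had few chains of their own. *Col8a1*, a short-chain lattice collagen of vessels and membranes, had 1411 CPM in EC4 (1375 to 1448) and 1167 in LIG (1133 to 1201) in the E15.5 library, and 2186 (2143 to 2229) and 887 (868 to 907) at E17.5. The folds were 5.52 and 9.27 in EC4 and 4.16 and 3.30 in LIG. All other clusters had at most 307 CPM in the E15.5 library, and at E17.5 MG1 (747 CPM) and MG3 (645 CPM) came next. In EC4 the suffixes gave 2213, 2182 and 2167 CPM. In EC4 *Col8a1* was the only chain called, where 1.26% of all genes were. In LIG its partner *Col8a2* was called too, with 110.3 CPM (100 to 121) and 322 CPM (311 to 334) and folds of 2.65 and 2.77, which makes 2 chains where 0.757% of all genes were. The highest *Col8a2* level of both libraries was in MG1, at 191 and 331 CPM.

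*Col5a3* and *Col6a6* marked EC2 and EC3. *Col5a3*, the less common type V chain, had 151 CPM in EC2 (144 to 160) and 131 in EC3 (125 to 138) in the E15.5 library, and 206 (196 to 216) and 128 (113 to 145) at E17.5. *Col6a6*, an alternative to the alpha3 chain of type VI, had 131 CPM in EC2 (123 to 138) and 133 in EC3 (126 to 140), and 90.3 (83.8 to 97.2) and 83.3 (71.0 to 97.0). EC1 came next for both chains in each library, with 84.6 to 120 CPM of *Col5a3* and 24.5 to 104 of *Col6a6*. At E17.5 *Col6a6* had at most 5.79 CPM in the 12 clusters outside EC1 to EC3. In EC2 *Col5a3*, *Col6a6* and *Col18a1* were called, 3 chains where 2.43% of all genes were, and in EC3 *Col5a3* and *Col6a6*, 2 chains where 1.33% were. The fold of *Col6a6* in EC2 went from 2.27 to 21.2 and that of *Col5a3* from 2.52 to 16.7. In EC2 itself *Col6a6* went from 131 to 90.3 CPM and *Col5a3* from 151 to 206 CPM. The other cells of these folds include EC3, with 1185 cells in the E15.5 library and 194 at E17.5. The part of cluster sizes in the change of the folds was not tested. *Col5a3* and *Col6a6* were each other's most alike chain (r 0.91 and 0.95). Pericyte markers (*Rgs5*, *Kcnj8*, *Abcc9* and *Notch3*) were 133 and 275 CPM in EC2 and 92.3 and 276 CPM in EC3. Their part was not tested. *Col18a1*, the multiplexin of basement membranes from which endostatin is cut, was low, at 19.1 CPM (16.4 to 22.1) and 7.17 CPM (5.43 to 9.29) in EC2, and MG4 had 18.4 CPM at E17.5.

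The remaining chains were rare. *Col25a1*, a transmembrane collagen of motor endplates, peaked in LIG at E15.5 (11.8 CPM, 8.66 to 15.7) and had 5.27 CPM or less everywhere at E17.5. *Col15a1*, a multiplexin of basement membrane zones, had 15.3 CPM or less. Below the minimum of 50 UMIs in each library were 10 chains, given as UMIs in labelled cells in the E15.5 library and then at E17.5. *Col6a5* had 171 and 34. *Col17a1* had 61 and 49, *Col4a4* 59 and 40, *Col20a1* 40 and 17, *Col6a4* 22 and 19, and *Col19a1* 18 and 2. *Col4a6* had 9 and 12, *Col10a1*, the chain of hypertrophic cartilage, 4 and 2, *Col4a3* 3 and 4, and *Col28a1* 1 and 2. No statement on clusters is made from these counts.

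Between layers, a level is the mean CPM over the clusters of the layer, and a chain is called when the fold reached 2 in the same direction in both libraries. Against the ectocranial layer, 11 of 34 chains were higher in the meningeal layer, where 3.03% of all genes were, and 2 (*Col5a3* and *Col6a6*) were higher in the ectocranial layer, where 4.32% of all genes were. The 11 were *Col2a1*, *Col4a1*, *Col4a2*, *Col4a5*, *Col9a1*, *Col9a2*, *Col11a1*, *Col13a1*, *Col14a1*, *Col16a1* and *Col23a1*. The median fold over the 34 chains was 1.63 in the E15.5 library and 1.43 at E17.5, and over all genes 0.956 and 1.01. Without MG1 and PO2, which had under 50 cells in a library, 4 chains remained of the 11 (*Col4a1*, *Col4a2*, *Col14a1* and *Col23a1*), and 5 were then higher in the ectocranial layer. Of the called chains, only *Col4a1*, *Col4a2* and *Col2a1* had no overlap between the clusters of both layers in either library. Neither the overlap nor the count without MG1 and PO2 was computed over all genes.

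Against the ectocranial layer, 4 of 34 chains were higher in the osteogenic layer (*Col11a2*, *Col13a1*, *Col22a1* and *Col24a1*), where 3.82% of all genes were. The layer value of each comes from OG4. For *Col22a1* it was 109.75 against 2.55 CPM in the E15.5 library and 18.2 against 2.54 at E17.5. Higher in the ectocranial layer were 6 chains, where 6.18% of all genes were. These were *Col5a3*, *Col6a6*, *Col8a1*, *Col14a1*, *Col18a1* and *Col25a1*. *Col8a1* had 613 against 147 CPM in the E15.5 library and 764 against 60.4 CPM at E17.5. The median fold of the chains was 1.27 and 0.816, and that of all genes 1.01 and 0.997.

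Between the meningeal and osteogenic layers, 5 chains were higher in the meningeal one (*Col2a1*, *Col4a2*, *Col8a2*, *Col14a1* and *Col16a1*), where 6.17% of all genes were, and the 4 chains of OG4 in the osteogenic one, where 5.43% were. Among the 5, *Col14a1* differed most, with 991 against 30.6 CPM (32.3-fold) in the E15.5 library and 588 against 14.6 CPM (40.2-fold) at E17.5. The suffixes gave 42.2, 44.8 and 35.2-fold, and the clusters of the layers did not overlap in either library. The *Col2a1* call, at 2.06-fold and 2.48-fold, fell short of 2-fold with cells thinned, without high doublet scores, with UMIs summed over a layer, without clusters under 50 cells, and without PO1 and PO2. The *Col8a2* call was lost with suffix 1 alone, and that of *Col13a1* with suffix 1 alone and with summed UMIs. The median fold was 1.37 and 1.99, against 0.951 and 1.04 over all genes.

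**Figure D4:**
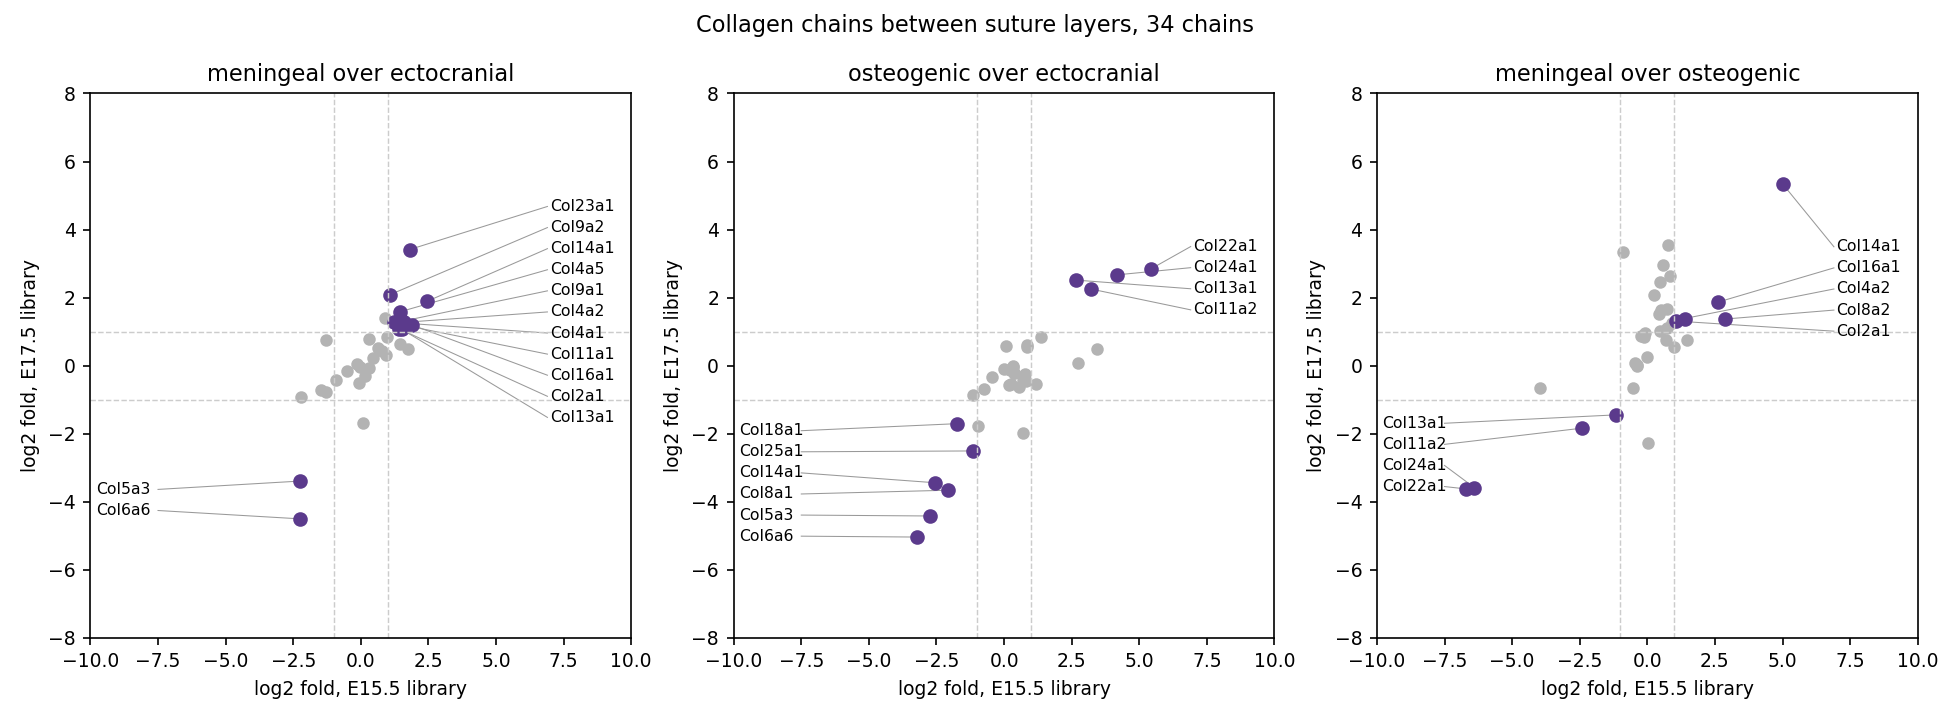
Log2 fold between layers for 34 collagen chains, E15.5 on the horizontal axis and E17.5 on the vertical axis, in 3 panels for the pairs of layers, with dashed lines at the 2-fold limit and called chains in purple. *Col14a1* lies far toward the meningeal layer in both meningeal panels, and *Col11a2*, *Col22a1*, *Col24a1* and *Col13a1* toward the osteogenic layer.

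Between the libraries, more chains were lower at E17.5 than higher. In the ectocranial layer 3 of 34 were at least 2-fold higher at E17.5 (*Col1a1*, *Col8a2* and *Col12a1*) and 12 lower, where 5.19% and 7.09% of all genes were. In the osteogenic layer 2 were higher (*Col8a2* and *Col12a1*) and 18 lower, where 5.05% and 12.4% of all genes were. In the meningeal layer 2 were higher (*Col8a1* and *Col24a1*) and 9 lower, where 8.36% and 6.02% of all genes were. The median fold of the chains was 0.960, 0.449 and 1.12 in the 3 layers, and that of all genes 1.01, 0.983 and 1.05. *Col24a1* had only 2 UMIs in the meningeal layer in the E15.5 library (0.254 CPM). Its fold of 2.95 sets the 1.51 CPM at E17.5 against the level of 3 UMIs, 0.512 CPM, so this count of 2 rests on a chain near the limit of counting.

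*Col2a1* was 0.217, 0.144 and 0.174 times its E15.5 level in the ectocranial, osteogenic and meningeal layers, and *Col9a1* 0.401, 0.324 and 0.342 times. *Col9a3*, *Col4a5*, *Col6a6*, *Col11a2* and *Col26a1* were also lower in all 3. For *Col2a1* the blood-marker cells went from 84.1 to 30.1 CPM as well, and chondrocyte-marker cells numbered 1281 in the E15.5 library and 250 at E17.5. *Col8a2* went from 46.2 to 151 CPM in the ectocranial layer and from 21.1 to 82.7 in the osteogenic layer. *Col12a1* went from 171 to 398 CPM and from 170 to 372 CPM. In the osteogenic layer *Col7a1* went from 22.7 to 1.32 CPM and *Col23a1* from 22.3 to 1.64. *Col1a1* went from 4847 to 11623 CPM in the ectocranial layer.

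OG4 changed within itself. *Col1a1* was 0.353 times and *Col1a2* 0.3401 times as high at E17.5, *Col11a1* 0.187 times, *Col22a1* 0.156 times, *Col11a2* 0.216 times and *Col5a2* 0.264 times. *Col6a1* and *Col6a2* were 4.795 and 5.01 times as high (63.0 to 302 CPM and 53.1 to 266 CPM) and *Col6a3* 2.63 times. *Col3a1* went from 573 to 755 CPM and *Col5a1* from 709 to 561 CPM, so the fibrillar chains did not all move one way.

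Chains that assemble together can be compared as a UMI ratio within a cluster, since 3′ counting gives 1 UMI per molecule whatever its length, although capture may differ between transcripts. Type I collagen holds more alpha1 than alpha2 chains. The ratio of *Col1a1* to *Col1a2* was above 1 in 5 of 15 clusters at E15.5 (0.615 to 1.26, median 0.918) and in 15 of 15 at E17.5 (1.04 to 2.09, median 1.15). It was highest in EC1 at E17.5, at 2.09 (2.05 to 2.13), where E15.5 had 1.07 (1.05 to 1.10), and in OG4 it was 1.26 and 1.30. The median over clusters was 1.38, 1.05 and 1.17 in the 3 suffixes, so the E17.5 suffixes spread about as far as the libraries differed.

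*Col4a1* exceeded *Col4a2* in 8 of 12 clusters in the E15.5 library and in 15 of 15 at E17.5, with medians of 1.26 and 1.46. *Col5a1* was below *Col5a2* in every cluster of both libraries, with medians of 0.462 and 0.717 and the lowest ratio in OG4 at E15.5, at 0.254 (0.238 to 0.270). *Col6a1* was above *Col6a2* in every cluster, with medians of 1.34 and 1.205, and their levels followed each other with r = 0.98 and 0.97, whereas *Col6a3* followed *Col6a1* with 0.61 and 0.28. The ratio of *Col11a1* to *Col11a2* was lowest in OG4, at 1.42 and 1.23, and reached 31.1 in MG3 in the E15.5 library and 50.03 in MG1 at E17.5. That of *Col8a1* to *Col8a2* went from 0.804 in MG2 to 17.6 in EC4 in the E15.5 library and from 0.537 in OG1 to 12.2 in EC2 at E17.5.

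**Figure D5:**
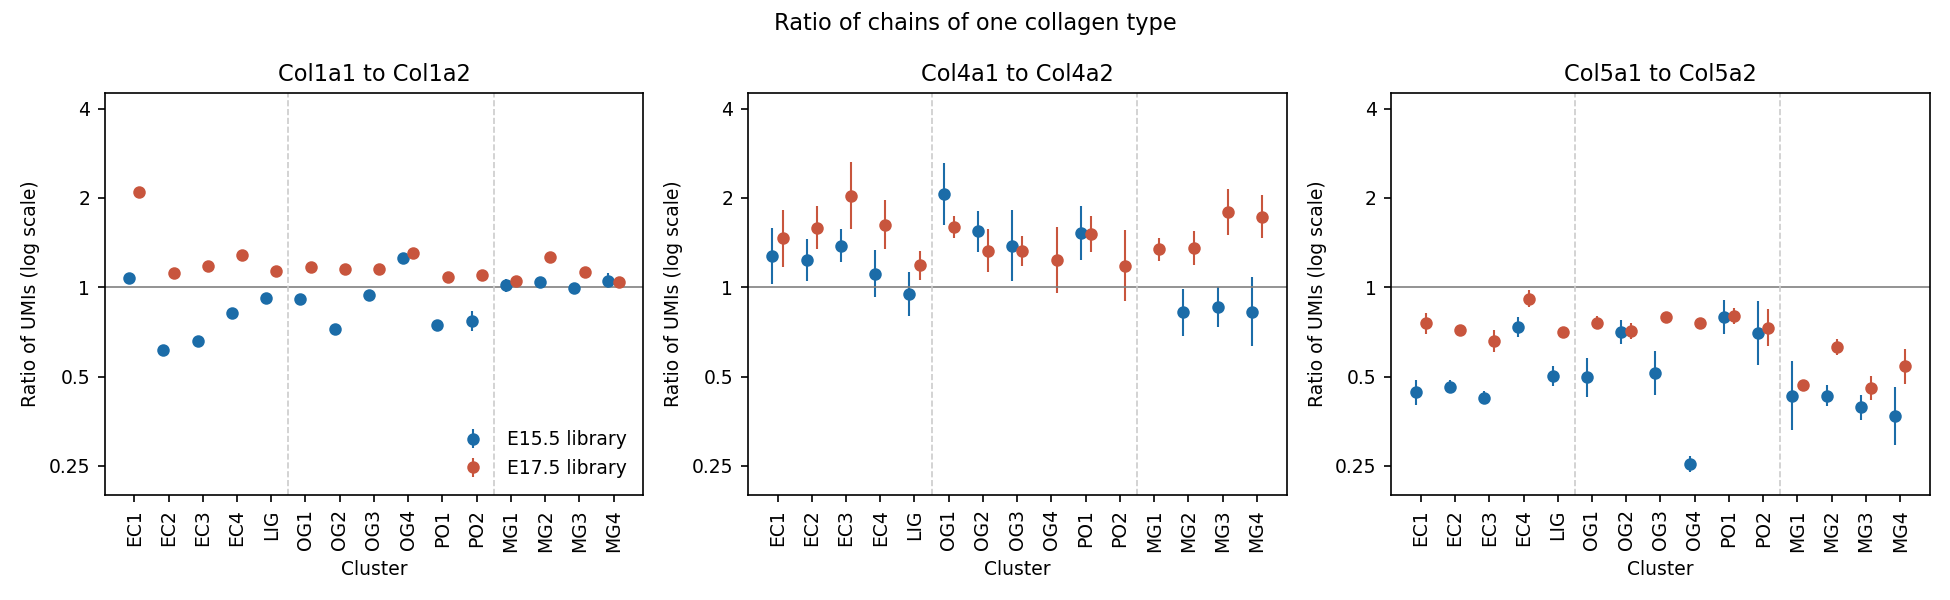
UMI ratios of *Col1a1* to *Col1a2*, *Col4a1* to *Col4a2* and *Col5a1* to *Col5a2* in each cluster on a log axis, with 95% intervals, for the E15.5 and E17.5 libraries. *Col1a1* to *Col1a2* lies above 1 in 15 of 15 clusters at E17.5 and in 5 in the E15.5 library, and *Col5a1* to *Col5a2* lies below 1 throughout.

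Genes of collagen synthesis gave few calls between layers. Of 33 enzymes and chaperones, 0 were higher in the meningeal and 1 in the ectocranial layer of that pair, where 3.03% and 4.32% of all genes were. In the osteogenic and ectocranial layers 1 and 2 were higher, where 3.82% and 6.18% of all genes were. In the meningeal and osteogenic layers 2 and 3 were higher, where 6.17% and 5.43% were. These 9 calls lie near the share of all genes, and the median folds were 0.924 to 1.45. The highest levels were those of *Serpinh1*, the collagen chaperone HSP47, at 3224, 2980 and 4414 CPM in the ectocranial, osteogenic and meningeal layers in the E15.5 library and 4129, 3770 and 4282 CPM at E17.5. *Pcolce*, an enhancer of propeptide cleavage, had 603, 679 and 1389 CPM and then 950.3, 849 and 1590 CPM. *Ppib*, a prolyl isomerase, had 776 to 1508 CPM, *Lox*, the crosslinking lysyl oxidase, 195 to 448 CPM, and *P4hb*, a subunit of prolyl 4-hydroxylase, 301 to 501 CPM over both libraries.

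*Loxl1*, a lysyl oxidase linked to elastic fibres, was higher in the ectocranial layer (283 and 314 CPM) and the meningeal layer (199 and 211 CPM) than in the osteogenic layer (68.9 and 83.6 CPM). *P3h3*, of the prolyl 3-hydroxylase family, was higher in the meningeal layer (140.2 and 356 CPM) than in the osteogenic one (50.9 and 176 CPM). *P3h2* and *Loxl4* were higher in the osteogenic than in the meningeal layer (*P3h2* 4.15 against 0.337 CPM and 19.98 against 5.38, *Loxl4* 7.18 against 1.46 and 3.32 against 0.722). *Loxl4* was also higher there than in the ectocranial layer. The other 3 calls, *Tll1* once and *Colgalt2* in 2 pairs, were at under 3 CPM. Of 7 receptors 6 were tested and 3 calls made, 1 in the osteogenic over the ectocranial layer and 1 in each direction between the meningeal and osteogenic layers, with the shares of all genes given for the enzymes. *Itga10*, a collagen-binding integrin subunit, was higher in the osteogenic layer, with 21.1 against 2.58 (ectocranial) and 1.71 CPM (meningeal) in the E15.5 library and 17.6 against 6.51 and 2.95 at E17.5. *Mrc2*, an endocytic receptor for collagen, had 82.6 CPM in the meningeal and 40.2 in the osteogenic layer in the E15.5 library, and 87.9 and 28.4 at E17.5.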

How the data were processed

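The authors deposited count matrices with the UMI counts of each gene and barcode, unnormalized and unfiltered, from single-cell 3′ libraries of both stages, and a table with the cluster of each labelled cell. Per the labels, reads were checked with FastQC 0.11.7 and MultiQC 0.9, counted with Cell Ranger on mm10 and analysed with Seurat 3.2.0. For E15.5, the file header gives version 3.1.0 of Cell Ranger, which is not the version in the study's methods. The lists hold 31053 genes (E15.5) and 27998 (E17.5), so chains were matched by identifier. Of 5340 labelled E15.5 cells in the table, 5335 were in the matrix. A further deposited file holds cell names and no measurement and was not used. The E17.5 matrix joins the cells of 3 separately prepared batches, and the file does not show whether their depths were equalized.

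UMIs were summed by cluster and library with Python 3.11.15, numpy 2.4.6, scipy 1.17.1 and pandas 2.3.3, and drawn with matplotlib 3.10.9. Labelled cells outside the authors' limits (at least 1000 UMIs and 1000 genes, at most 7.5% mitochondrial and 3% Hbb or Hba UMIs), 93 at E15.5, were kept. Unlabelled cells within these limits were assigned to another cell type when they held UMIs of at least 2 of its markers. In a fold against fewer than 3 UMIs the lower side was raised to 3 UMIs, and this raising could not by itself make a call. Doublet scores came from Scrublet in scanpy 1.11.5, run on the suffixes separately at an expected rate of 0.06, and cells from the 94th percentile on were left out in 1 alternative, since Scrublet's own threshold called 41 of 8767 E17.5 cells. Positions are from GENCODE (GRCm38) and promoter windows from RefSeq (GRCm38.p6).

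Every chain was named, those with at least 50 UMIs in each library with levels, and of the enzymes and receptors those called plus the 5 highest. The members and lists were chosen with earlier results of these data known. The computation was tested on simulated data. The alternatives were a limit of 1.5-fold, other denominators, thinning to 3000 UMIs, other cell and gene filters, each suffix alone, other layer means and subtraction of the level in blood-marker cells.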

Additional observations from a re-analysis of the deposited data

Results flagged for a closer look

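Some chains were higher in unlabelled cells, which enter no comparison of clusters or layers above, than in any labelled cluster of both libraries. Such cells were taken by markers, and each value below is a fold over the highest labelled cluster, first for E15.5 and then for E17.5.

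Cells with chondrocyte markers (1281 and 250 cells) exceeded every labelled cluster in the cartilage chains. *Col2a1* was 10.3-fold and 48.9-fold higher, *Col9a1* 11.5-fold and 25-fold, *Col9a2* 10.4-fold and 11.4-fold, and *Col9a3* 16-fold and 22.9-fold. *Col11a1* was 2.87-fold and 2.74-fold higher and *Col15a1* 2.02-fold and 2.74-fold.

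Cells with endothelial markers (31 and 89 cells) led in the basement membrane chains. *Col15a1* was 15.2-fold and 15.1-fold higher, *Col18a1* 15-fold and 13.3-fold, *Col4a1* 5.24-fold and 4.26-fold, and *Col4a2* 3.12-fold and 2.7-fold. Cells with pericyte markers (81 and 114 cells) had 4.34-fold and 4.31-fold more *Col4a1* and 2.01-fold and 2.68-fold more *Col4a2*.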

How the results depend on the processing

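No paired analysis was possible because each stage is 1 sample and no test was run. Of 254 counts recomputed under 16 alternatives, 233 stayed within 1.5 times the value above. With a limit of 1.5-fold, 64 pairs of a chain and a cluster were called, 8 chains in OG4, 5 in the ectocranial over the meningeal layer, 12 in the meningeal over the osteogenic layer, 28 enzymes and 7 receptors over the pairs of layers, and 10 chains higher at E17.5 in the ectocranial and 5 in the meningeal layer. Without *Col1a1*, *Col1a2* and *Col3a1*, 8 clusters had a higher collagen share at E17.5. Suffix 1 alone gave 7 chains in OG4, 0 in MG1 (it holds 0 MG1 cells) and 4 in the ectocranial over the meningeal layer, and suffix 3 alone 5 calls of enzymes. Without clusters under 50 cells, 4 chains were higher in the meningeal over the ectocranial layer, 5 the other way, and 1 in the meningeal layer at E17.5. Subtracting the level of blood-marker cells gave 4 chains in the ectocranial over the meningeal and 12 in the meningeal over the osteogenic layer. With at least 3 UMIs in each library 5 receptor calls were made, and without PO1 and PO2 1 chain was higher at E17.5 in the osteogenic layer. Without high doublet scores 4 chains were lower at E17.5 in the meningeal layer. Thinning to 3000 UMIs reversed *Col7a1* in OG1 (log2 -0.1363) and *Col13a1* in the meningeal over the ectocranial layer (log2 -0.2261). Of 67 calls of single chains (35 higher in a cluster and 32 between layers), 59 to 67 stayed past the limit under each alternative that covers all of them. Calls of chains lower in a cluster were not recomputed. Of the 32 calls between layers, 28 stayed with UMIs summed over a layer, 23 without clusters under 50 cells and 30 without PO1 and PO2. Between the meningeal and ectocranial layers, *Col2a1* was lost with suffix 1 and with suffix 2 alone, *Col11a1* with suffix 1 and *Col13a1* with suffix 2, and so was *Col18a1* between the osteogenic and ectocranial layers with suffix 2. In single clusters, suffix 1 alone lost *Col7a1* in OG1, suffix 2 *Col26a1* in OG2 and *Col4a1* in MG3, and suffix 3 *Col26a1* in OG2 and *Col4a2* in MG4. Where no value above shows it, the cause was not tested.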
